A study of Mus musculus with 4 samples.

Results

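Ribosome-protected fragments of 10 genes tied to the self-renewal of spermatogonial stem cells were examined in mouse testis cells that carry the surface marker THY1. The genes were the GDNF receptor genes Gfra1 and Ret, the GDNF-linked genes Etv5, Bcl6b, Id4 and Lhx1, the transcription regulator genes Zbtb16, Taf4b and Foxo1, and Thy1, whose product marks the isolated cells. They were taken by gene symbol from a table of 22396 named genes, and all 10 were found and carried an adjusted p. The study compared 2 samples from Ddx20 knockout mice with 2 samples from littermate controls, each made from about 1000 cells. The age, the strain, the form of the deletion, the cells in which it acts and whether animals were pooled were not stated in any source at hand. Whether samples of 1 genotype came from different animals is also unstated, so p-values measure the spread between these samples.

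DDX20 (Gemin3) is an RNA helicase of the DEAD-box family that belongs to the SMN complex. Spermatogonial stem cells arise from prospermatogonia after birth and maintain themselves by dividing in response to GDNF, a growth factor made by somatic cells of the testis. GDNF binds GFRA1, a protein anchored to the outer membrane by a lipid, and the pair activates the receptor tyrosine kinase RET, which signals through SRC family kinases, RAS and ERK kinases, and PI3 kinase and AKT. In cultured stem cells GDNF raises the transcripts of Etv5, Bcl6b and Lhx1. PLZF (the product of Zbtb16), TAF4B and FOXO1 are needed in mice to keep the stem cell pool over time.

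What the authors deposited is a single comparison with 1 row per gene and a mean over the libraries, without columns for single samples. Whole reads in 4 libraries, called A to D here, were recovered from those means, with totals from 221439 in library D to 941014 in library A. Libraries A and B form the side on which a negative fold change means more reads, and C and D the other side. Which side holds the knockout is not stated, so no library is given a genotype: "fell" means past the threshold and lower in C and D, "rose" means past it and higher there, and exchanging the sides would turn every direction at once. The threshold was an adjusted p of 0.05 (Benjamini-Hochberg, BH below) over all 17347 tested genes. Levels are normalized counts, that is reads divided by the authors' size factor of the library. The pair A and B differed by less than the sampling noise (chi-square over degrees of freedom 0.982 across 10424 genes, p = 0.905) and was also counted as 1 sample, whereas the pair C and D exceeded that noise (1.08 across 12228 genes, p = 3.79e-10). Olfactory and vomeronasal receptor genes, which belong to sensory neurons of the nose, made up 0.806% of library C (0.774 to 0.840, a 95% Wilson interval for counting error only) and 0.899% of library D (0.860 to 0.939), against 0.00457% of A and 0.00469% of B. Those 1547 genes had a median of 1 read each in C and in D and at most 10 and 9. Ddx20 itself had normalized counts of 167.0, 172.5, 42.6 and 50.8 in A to D, and the authors' deposited table gave a fall (log2 fold change -1.83, SE 0.243, BH-adjusted p = 4.07e-13).

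Of the 10 stem cell genes, 7 fell, 0 rose and 3 missed the threshold in the authors' deposited table. Over all tested genes there, 18.8% fell and 26.9% rose. Those that fell were Gfra1, Ret, Etv5, Id4, Zbtb16, Taf4b and Foxo1, and those that did not pass were Bcl6b, Lhx1 and Thy1. The median log2 fold change of the 10 was -1.02, against 0.38 over all tested genes of the authors' deposited table. Both C and D lay below both A and B for 9 of the 10, Lhx1 being the exception, against 30.8% of all tested genes. That share is not matched for level. Of 4 equal bins of tested genes by mean normalized count, the highest held 8 of the 10, and 61.2% of its genes fell. With 2 libraries on each side the smallest 2-sided p an exact permutation test can give for a single gene is 0.333, so the fits across all genes carry the tests.

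**Figure D1:**
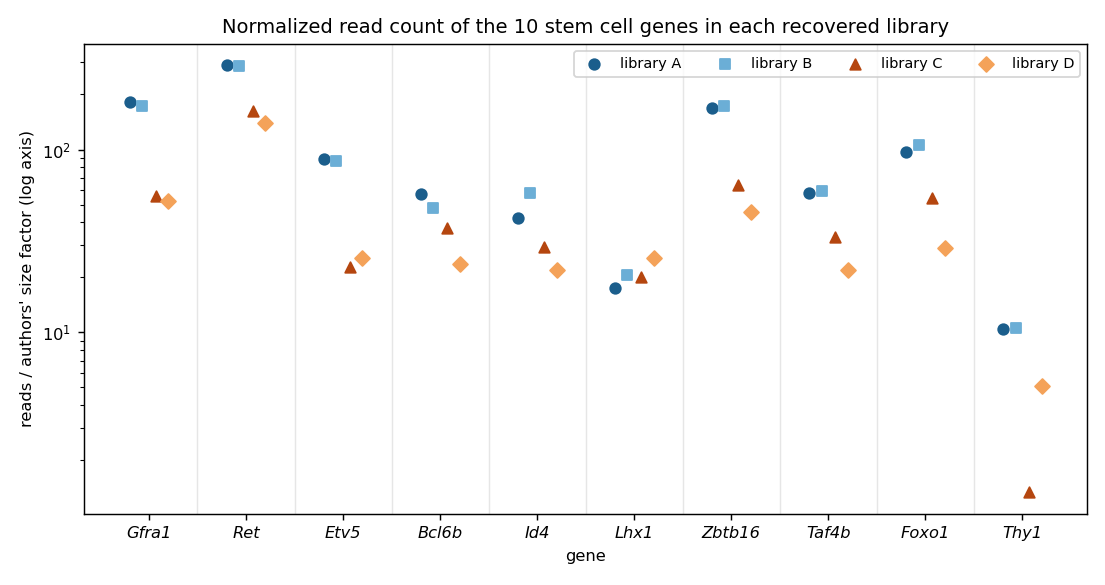
Normalized read count (reads divided by the authors' size factor, log axis) of the 10 stem cell genes in each recovered library, 1 point per library. The points of C and D lie below those of A and B for every gene but Lhx1, and A and B lie close together for most genes, Id4 being spread most.

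Both parts of the GDNF receptor fell. Gfra1, on chromosome 19 from 58235581 to 58455946 in GRCm38 (the build also called mm10), had 311 and 244 reads in A and B and 42 and 31 in C and D, which are normalized counts of 180.9, 172.5, 56.0 and 52.5. The sides did not overlap, and the libraries of a side were close to each other. Its log2 fold change was -1.67 in the authors' deposited table (SE 0.230, BH-adjusted p = 3.38e-12). Ret, on chromosome 6 from 118151748 to 118197744, had 496, 405, 122 and 83 reads in A to D, and normalized counts of 288.6, 286.4, 162.6 and 140.4. The sides were again apart, with a smaller fall than that of Gfra1 in the authors' deposited table (-0.90, SE 0.160, BH-adjusted p = 1.54e-07). The ratio of Gfra1 reads to Ret reads within a library, into which no scaling enters, was 0.627 and 0.602 in A and B and 0.344 and 0.373 in C and D. Gfra1 thus made up a smaller part of the receptor reads in both C and D, a difference of -0.78 on the log2 scale. No matched RNA measurement was used, so transcript level and translation are not separated, and in such bulk samples fewer cells of a type and less RNA per cell cannot be told apart. The loci of Gfra1, Id4, Zbtb16 and Taf4b overlap other RefSeq genes that have no row of their own, and whether strand was used in counting is not stated, so reads of such partners are not separated.

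Among the GDNF-linked genes, Etv5 and Id4 fell, and Bcl6b and Lhx1 did not pass. Etv5, an ETS family transcription factor whose loss in mice leads to the loss of spermatogonial stem cells, lies on chromosome 16 from 22381313 to 22439570. It had 152, 122, 17 and 15 reads in A to D, or normalized counts of 88.4, 86.3, 22.7 and 25.4. This gave the lowest fold change of the 10 in the authors' deposited table (-1.79, SE 0.337, BH-adjusted p = 3.93e-07). Id4, an inhibitor of DNA binding whose reporter marks stem cells among spermatogonia, lies on chromosome 13 from 48261116 to 48266028. Its normalized counts were 42.5 and 58.0 in A and B and 29.3 and 22.0 in C and D, so the sides did not overlap but each was spread. It passed narrowly in the authors' deposited table (-0.86, SE 0.370, BH-adjusted p = 0.0317), and it did not pass limma on the recovered reads without library B (-0.69, adjusted p = 0.0859). Bcl6b, a BTB domain zinc finger repressor on chromosome 11 from 70224127 to 70229798, was at 57.0, 48.1, 37.3 and 23.7 in A to D. C and D lay below A and B, but in the authors' deposited table the gene missed the threshold (-0.70, SE 0.343, BH-adjusted p = 0.0647). In limma, fitted to the recovered reads under the authors' size factors, Bcl6b passed (-0.76, adjusted p = 0.00942), a call lost without library A (-0.64, adjusted p = 0.109) or library D (-0.48, adjusted p = 0.116). Lhx1, a LIM homeodomain transcription factor gene on chromosome 11 from 84517975 to 84525534, had 30, 29, 15 and 15 reads and normalized counts of 17.5, 20.5, 20.0 and 25.4. The sides overlapped, and the authors' deposited table gave 0.21 (SE 0.444, BH-adjusted p = 0.681). As a share of all reads, Lhx1 took 31.9, 36.7, 53.1 and 67.7 of every 1000000 reads in A to D, with 95% Wilson intervals of 22.3 to 45.5, 25.6 to 52.7, 32.2 to 87.5 and 41.1 to 111.8.

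The promoters of Gfra1 and Etv5, both of which fell, are shown beside that of Lhx1, which did not, to give the sequence at the starts of 3 GDNF-linked genes at both ends of the range. They come from RefSeq on GRCm38.p6 and run from 250 bases before to 50 bases after a transcription start, 5′ to 3′ on the gene's strand, which is the minus strand for all 3. Promoters of 5 of the 10 genes were examined, and Taf4b was left out of that set. Etv5 has 2 in that set, of which the one at the gene's outer start is printed. Capitals mark motif matches on either strand, out of the FOXO motif with the letters GTAAACA, the ETS motif with the letters CCGGAAGT, the E-box with the letters CACGTG, the cAMP response element with the letters TGACGTCA, the GC box with the letters GGGCGG, the box named for its letters CCAAT, and the TATA box with the letters TATAAA.
Gfra1, chr19:58455349-58455648: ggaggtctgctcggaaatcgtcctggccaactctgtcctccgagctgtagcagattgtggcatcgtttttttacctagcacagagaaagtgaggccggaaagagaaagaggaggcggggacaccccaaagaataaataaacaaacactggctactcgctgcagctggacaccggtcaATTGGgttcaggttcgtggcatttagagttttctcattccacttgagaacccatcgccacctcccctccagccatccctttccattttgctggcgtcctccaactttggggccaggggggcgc
Etv5, chr16:22439521-22439820: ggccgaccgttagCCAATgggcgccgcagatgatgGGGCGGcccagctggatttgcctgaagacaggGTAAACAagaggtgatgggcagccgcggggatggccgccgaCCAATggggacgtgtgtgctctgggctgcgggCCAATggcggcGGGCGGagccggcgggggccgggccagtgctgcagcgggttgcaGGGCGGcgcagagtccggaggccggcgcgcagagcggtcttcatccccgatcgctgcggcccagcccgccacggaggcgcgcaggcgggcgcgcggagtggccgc
Lhx1, chr11:84525485-84525784: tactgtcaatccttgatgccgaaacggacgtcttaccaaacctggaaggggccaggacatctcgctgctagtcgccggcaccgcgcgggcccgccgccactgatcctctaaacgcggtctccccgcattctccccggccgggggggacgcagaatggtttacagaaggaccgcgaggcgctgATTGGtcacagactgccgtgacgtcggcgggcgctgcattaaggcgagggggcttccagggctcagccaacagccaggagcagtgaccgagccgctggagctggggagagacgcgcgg
The Etv5 sequence held 1 FOXO match at position -183 from the start, 3 GC boxes and 3 CCAAT boxes. The other Etv5 promoter, chr16:22438319-22438618, held 1 CCAAT box and no other match. The Gfra1 and Lhx1 sequences each held 1 CCAAT box, at positions -73 and -68, and no other match. Of 32851 promoters of the same length, 3.65% held the FOXO motif, 35.7% a GC box and 37.4% a CCAAT box. The ETS motif, the E-box, the cAMP response element and the TATA box, found in 3.89%, 7.15%, 1.79% and 13.6% of all promoters, were in none of the 3. A match is a description of letters, and a sequence without one says nothing about a factor.

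All 3 of the other transcription regulators fell. Zbtb16 encodes PLZF, a zinc finger protein of undifferentiated spermatogonia, and lies on chromosome 9 from 48651797 to 48836225. It had 291, 244, 48 and 27 reads and normalized counts of 169.3, 172.5, 64.0 and 45.7 in A to D, with a log2 fold change of -1.58 in the authors' deposited table (SE 0.231, BH-adjusted p = 5.74e-11). Taf4b, which encodes a germ cell form of the TFIID subunit TAF4, lies on chromosome 18 from 14783201 to 14960424. It was at 58.2, 59.4, 33.3 and 22.0, and the authors' deposited table gave -0.98 (SE 0.345, BH-adjusted p = 0.00836). Foxo1, a forkhead factor held out of the nucleus by AKT, lies on chromosome 3 from 52268337 to 52350109. It was at 96.6, 106.1, 54.6 and 28.8 in A to D, and fell by 1.19 on the log2 scale in the authors' deposited table (SE 0.280, BH-adjusted p = 8.20e-05). For these 3 genes A and B were close, C was above D in each, and no value of C or D reached those of A or B. The ratio of C to D was widest for Foxo1, at 1.90. Over the 10 genes the ratio of A to B ran from 0.733 to 1.19, and that of C to D from 0.263 to 1.90.

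Thy1, the gene of the sorting marker, had few reads in every library. THY1 is a small glycoprotein held on the cell surface by a lipid anchor, which T lymphocytes, many fibroblasts and neurons also carry. Thy1, on chromosome 9 from 44043384 to 44048579, had 18 and 15 reads in A and B and 1 and 3 in C and D. Per 1000000 reads this was 19.1 and 19.0 in A and B (95% Wilson intervals 12.1 to 30.2 and 11.5 to 31.3) and 3.54 and 13.5 in C and D (0.624 to 20.0 and 4.61 to 39.8). The intervals of all 4 libraries overlap, and its reads in C and D are in the range of single receptor genes of the nose there. In the authors' deposited table the gene missed the threshold (-1.05, SE 0.942, BH-adjusted p = 0.156). The log2 ratio of its mean normalized counts, C and D over A and B, was -1.72, a larger fall than the deposited value. With the authors' size factors, limma gave -1.68 (adjusted p = 0.00829), which was lost when library C (adjusted p = 0.481) or D (0.115) was left out.

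Set beside genes of similar level, the falls were common. Tested genes were put into 4 equal bins by mean normalized count, and 8 of the 10 stem cell genes lay in the highest bin, which starts at a mean of 27.2. Of those 8, 7 fell, while 61.2% of all genes in that bin fell and 11.7% rose there, by the authors' deposited table. The median of the bin was -1.05 in the authors' deposited table. Etv5, Gfra1, Zbtb16 and Foxo1 had fold changes below that median, and Taf4b, Ret, Id4 and Bcl6b above it. Lhx1 lay in the third bin (median 0.16 in the authors' deposited table) close to that median, and Thy1 in the second (median 1.28), far under it. A fall was thus the most common result among other well-read genes too.

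**Figure D2:**
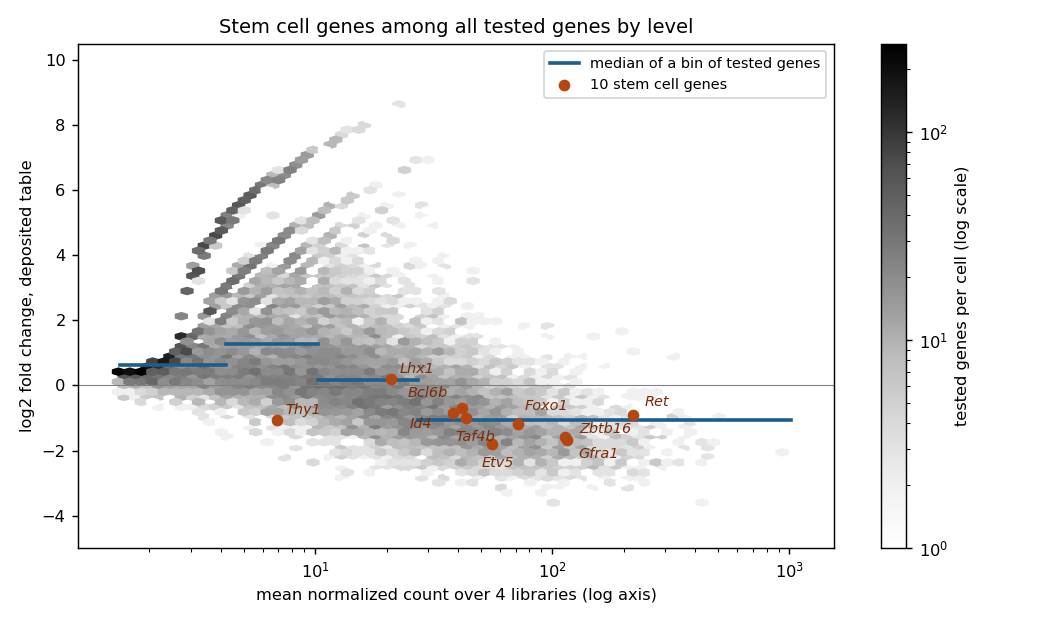
Log2 fold change in the deposited table (vertical axis) against mean normalized count over the 4 libraries (horizontal log axis), with all tested genes as shaded cells, the median of each of 4 bins as a line and the 10 stem cell genes as points. Tested genes of low mean lie mostly above 0 and those of high mean mostly below, and the points of the 10 genes lie within that cloud.

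The size of each change depended on the scaling. Against the authors' size factors, library totals moved the median log2 fold change of all genes by 0.55 in limma on the recovered reads, and TMM factors by -0.15. With library totals 5 of the 10 genes fell and 1 rose, against 18.9% and 50.2% of all genes. Those that fell were Etv5 (-1.28, adjusted p = 7.11e-05 in limma), Gfra1, Zbtb16, Foxo1 and Ret, and Lhx1 rose (0.82, adjusted p = 0.0223 in limma). Taf4b (-0.50), Id4 (-0.34), Bcl6b (-0.21) and Thy1 (-1.12) did not pass in limma with library totals. With the authors' size factors limma called 9 of the 10 as falls and left Lhx1 uncalled, against falls in 28.8% of all genes. Counting A and B as 1 sample gave 9 calls, with falls in 27.3% of all genes. In either direction, limma called 69.7% of all genes with the authors' size factors, 69.5% with TMM factors, 69.1% with upper-quartile factors and 69.2% with library totals. It called 71.6% with at least 50 reads, 75.1% with at least 1 read, 69.5% without the 50 most abundant genes and 66.7% with A and B as 1 sample. Without library A, B, C or D it called 62.9%, 63.9%, 52.8% or 56.3%. The authors' deposited table called 45.7% in either direction, 31.3% at an adjusted p of 0.01 and 42.3% when a log2 change above 1 was also asked.

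**Figure D3:**
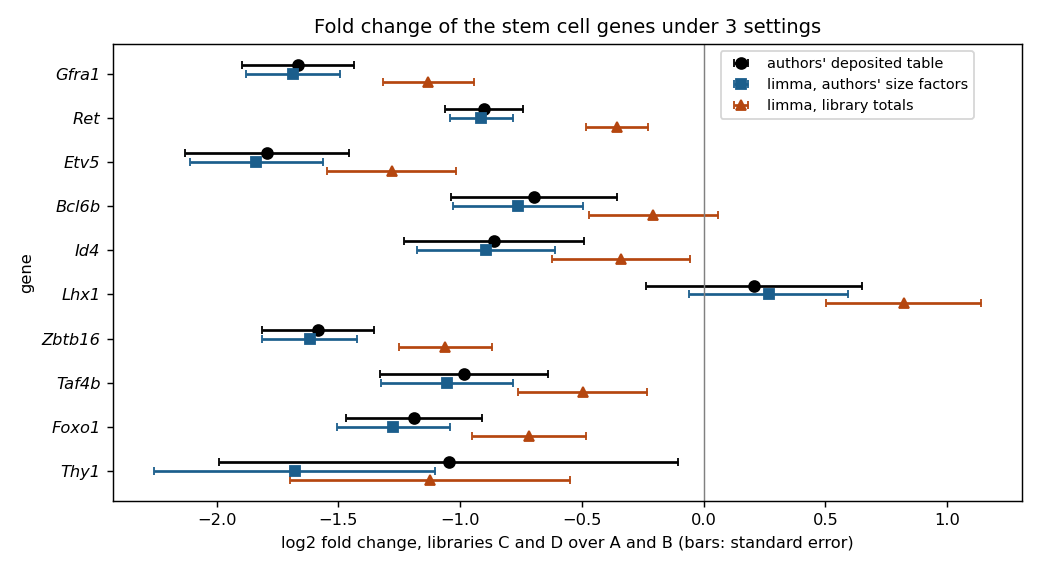
Log2 fold change (horizontal axis, C and D over A and B) with its standard error for the 10 stem cell genes in the deposited table and in limma fits of the recovered reads scaled by the authors' size factors or by library totals. Library totals lie to the right of the authors' size factors in limma for every gene, and Lhx1 is the one gene whose points all lie above 0.

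The nearest relatives of these genes were counted next. Of 15 paralogues of the 10 genes, 14 were tested in the authors' deposited table, where 1 fell, 3 rose and 10 missed the threshold, with a median log2 fold change of 0.48. These counts lie near those over all tested genes of the authors' deposited table, where 18.8% fell, 26.9% rose and the median was 0.38. Taf4, the paralogue of Taf4b, rose where Taf4b fell (Taf4: 1.39 in the authors' deposited table, SE 0.421, BH-adjusted p = 0.00157). With library totals, 0 of 13 paralogues fell and 9 rose in limma, against 18.9% and 50.2% of all genes. Taf4 had 25, 20, 31 and 24 reads in A to D and normalized counts of 14.5, 14.1, 41.3 and 40.6. There were 4.00 and 4.20 Taf4b reads per Taf4 read in A and B, and 0.806 and 0.542 in C and D. The log2 ratio was thus different by -2.63 between the sides, the widest gap among the 6 ratios computed, and no scaling enters it.

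For the ETS factors, Etv4, a relative of Etv5 that also answers to growth factors, had 92, 60, 29 and 32 reads and missed the threshold in the authors' deposited table (-0.06, BH-adjusted p = 0.869), as did Etv1 (0.45, adjusted p = 0.270), with at most 4 reads in a library. The ratio of Etv5 to Etv4 reads was 1.65 and 2.03 in A and B and 0.586 and 0.469 in C and D. For the inhibitors of DNA binding, Id1 (0.32), Id2 (0.86) and Id3 (0.71) missed the threshold in the authors' deposited table (BH-adjusted p = 0.495, 0.0508 and 0.0899). The ratio of Id4 reads to the reads of those 3 together was 0.737, 0.891, 0.355 and 0.181 in A to D. For the forkhead factors, Foxo3 fell (-0.73, BH-adjusted p = 0.0161) and Foxo6 rose (1.09, adjusted p = 0.0220), while Foxo4 (0.01, adjusted p = 0.982) missed the threshold, in the authors' deposited table. With library totals Foxo3 did not pass in limma (-0.20, adjusted p = 0.405). The ratio of Foxo1 to Foxo3 reads was 1.24, 1.28 and 1.21 in A, B and C and 0.586 in D, so the difference between the sides rests on library D.

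Among the GDNF family co-receptors, Gfra2, the receptor of neurturin, rose in the authors' deposited table (3.62, SE 1.33, BH-adjusted p = 0.00400), from 2 and 0 reads in A and B to 12 and 6 in C and D. Its pooled reads, 18 in C and D against 2 in A and B, each divided by the summed size factors of the side, had a ratio of 21.0, with an exact 95% interval of 5.03 to 187 that covers counting error only, and in C and D single receptor genes of the nose had at most 10 and 9 reads. Gfra3 (0.52, adjusted p = 0.418) and Gfra4 (0.22, adjusted p = 0.717) missed the threshold in the authors' deposited table. Of the others, Zbtb32, a relative of Zbtb16 (0.08, adjusted p = 0.895), and Bcl6, the relative of Bcl6b (0.90, adjusted p = 0.203), missed the threshold in the authors' deposited table, and Lhx5 had 3 reads in all and no adjusted p. The ratio of Zbtb16 to Zbtb32 reads was 12.1 and 13.6 in A and B and 3 and 6.75 in C and D. The paralogues had lower means than the members, with 4 of the 14 in the highest bin, and tested genes of low mean rose more often than they fell, so level and membership move together here and their part in the difference was not tested.

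**Figure D4:**
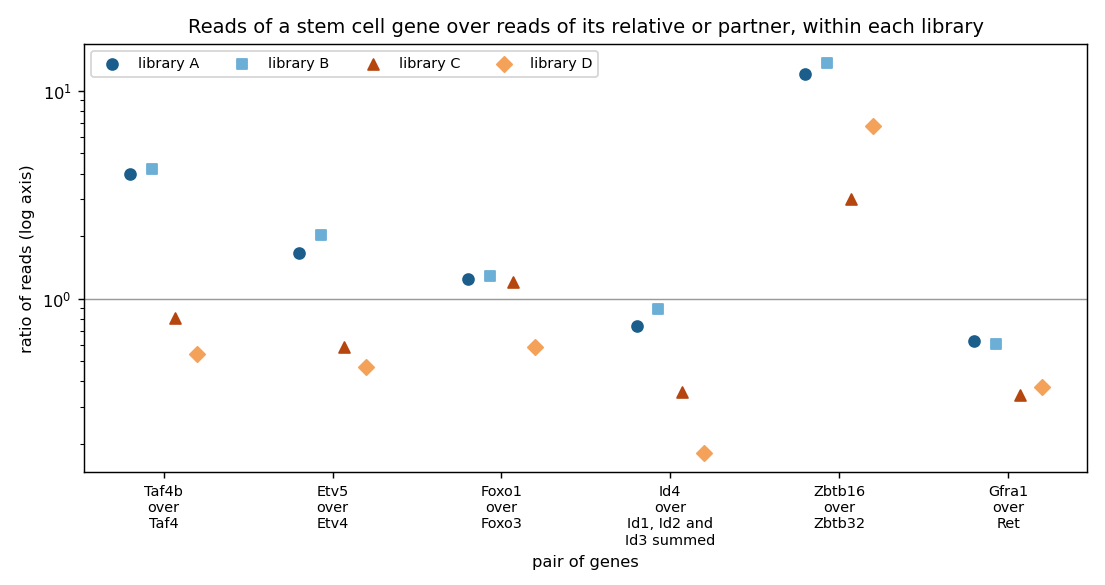
Ratio of the reads of a stem cell gene to those of a relative, or of Gfra1 to its partner Ret, within each library (log axis), 1 point per library. In each pair C and D lie below A and B, by the least for library C in the pair of Foxo1 and Foxo3.

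The broad germ cell markers fell too. All 9 tested of 10 germ cell markers, Ddx4 and Dazl among them, fell in the authors' deposited table, with a median log2 fold change of -2.97. These 9 lay in the highest bin by mean, where 61.2% of all genes fell and the median was -1.05. Over all tested genes 18.8% fell. Summed normalized counts of the 10 markers were 2682 and 2879 in A and B and 379 and 381 in C and D. The 10 stem cell genes summed to 1009 and 1020 in A and B and 481 and 391 in C and D. Per 100 reads of the germ cell markers there were 37.6 and 35.4 reads of the stem cell genes in A and B and 127.1 and 102.7 in C and D. Taken one by one, 9 of the 10 genes were higher in C and D on this measure, Thy1 being the exception, and so were 94.8% of all tested genes and 93.1% of those in the highest bin. Gfra1 went from 6.75 and 5.99 reads per 100 marker reads in A and B to 14.8 and 13.8 in C and D, and Ret from 10.8 and 9.95 to 43.0 and 36.9.

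**Figure D5:**
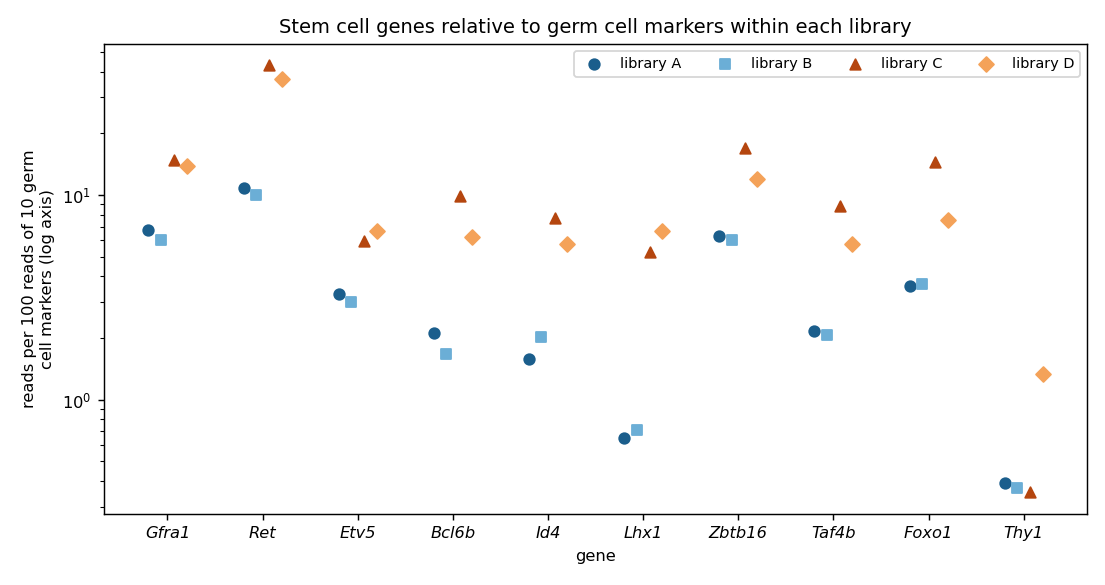
Reads of each stem cell gene per 100 reads of the 10 germ cell markers in the same library (log axis), 1 point per library. The points of C and D lie above those of A and B for each gene but Thy1, the opposite order to that of the normalized counts for 8 of the 10.

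Markers of somatic cells had other patterns. Summed normalized counts in A and B and in C and D were 117 to 130 and 109 to 117 for 10 Sertoli markers, 33.2 to 34.9 and 57.3 to 64.3 for 7 Leydig markers, 33.2 to 44.2 and 129 to 140 for 6 peritubular myoid markers, and 810 to 814 and 1082 to 1100 for 7 fibroblast markers. They were 68.6 to 75.1 and 149 to 157 for 6 endothelial markers, 91.9 to 92.6 and 143 to 149 for 7 macrophage markers, 9.31 to 10.6 and 40.6 to 45.3 for 7 T lymphocyte markers, and 0.707 to 1.16 and 5.08 to 12 for 5 red blood cell markers. In the authors' deposited table, rises were found for 4 of 6 tested myoid, 2 of 7 fibroblast, 2 of 6 endothelial, 2 of 7 macrophage, 1 of 7 T lymphocyte and 1 of 10 Sertoli markers and for none of the Leydig and red blood cell markers, and 2 fibroblast, 1 macrophage and 1 Sertoli markers fell. Over all tested genes 26.9% rose and 18.8% fell. With library totals, limma gave rises for 6 of 6 myoid, 3 of 7 fibroblast, 4 of 6 endothelial, 5 of 7 macrophage, 5 of 5 T lymphocyte, 4 of 10 Sertoli and 3 of 5 Leydig markers, against 50.2% of all genes. In that fit 1 macrophage and 1 Sertoli markers fell and no fibroblast marker did, and no red blood cell marker had enough reads to enter it. No marker of the other 7 somatic lists was at 0 on a whole side, and of the red blood cell markers 2 had no read in C and D (the alpha globin genes) and 2 none in A and B (the beta globin genes). Of 5 markers of differentiating spermatogonia, such as Kit and Stra8, 4 fell in the authors' deposited table (median -1.56). The same 4 lay in the highest bin by mean, where 61.2% of all genes fell. Sums for these spermatogonia were 407 to 409 in A and B and 100.0 to 110.0 in C and D. The part of these cells, and of the receptor gene reads given above, in the falls of the stem cell genes was not tested.

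The genes around RET were counted in the same way. Of 34 genes for GDNF family ligands, their co-receptors and RET signalling, 4 fell, 5 rose and 25 missed the threshold in the authors' deposited table, with a median of 0.29. Both counts lie below the shares over all genes (18.8% and 26.9%, median 0.38, in the authors' deposited table). Of the list, 10 genes lay in the highest bin by mean and 4 of those fell, against 61.2% of all genes of that bin. With library totals 4 of 29 fell and 14 rose in limma, against 18.9% and 50.2% of all genes. The SRC family kinase gene Fyn was at 102.4, 117.4, 48.0 and 38.9 in A to D and fell by 1.27 on the log2 scale in the authors' deposited table (SE 0.268, BH-adjusted p = 8.67e-06). Map2k1, the gene of the kinase MEK1, was at 79.7, 82.7, 28.0 and 33.8 and fell by 1.33 in the authors' deposited table (SE 0.315, BH-adjusted p = 7.13e-05). For both genes C and D lay below A and B, and both also passed with library totals in limma (adjusted p of 0.00317 at most). Grb10, an adaptor of receptor tyrosine kinases, rose beside Gfra2 (1.02, BH-adjusted p = 0.00518), with normalized counts of 26.8, 25.5, 66.6 and 44.0. Plcg1, a phospholipase (-0.20), and Sos1, which loads RAS with GTP (0.14), were the genes of highest mean below the threshold of the authors' deposited table (BH-adjusted p = 0.496 and 0.721). The gene of GDNF itself had 6, 0, 3 and 5 reads in A to D and did not pass (0.64, BH-adjusted p = 0.312, in the authors' deposited table).

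Among 37 other genes of undifferentiated spermatogonia, of which Pramef12 was not analysed here, 35 were tested in the authors' deposited table, where 12 fell, 6 rose and 17 did not pass, with a median of -0.44. Over all tested genes 18.8% fell and 26.9% rose. Of the list, 19 genes lay in the highest bin by mean and 11 of those fell, which is near the 61.2% of all genes of that bin. The lowest p among them belonged to Epcam, a cell adhesion gene, which was at 198.4, 210.7, 18.7 and 27.1 in A to D and fell by 3.14 on the log2 scale in the authors' deposited table (SE 0.306, BH-adjusted p = 1.98e-23). The tetraspanin gene Cd9 (-2.48) and the integrin chain genes Itgb1 (-1.60) and Itga6 (-1.52) also fell in the authors' deposited table (BH-adjusted p = 4.10e-16, 8.19e-22 and 4.57e-08). The cyclin gene Ccnd2 (-1.87) and the transcription factor gene Stat3 (-1.48) also fell in the authors' deposited table (BH-adjusted p = 1.93e-15 and 2.61e-07). The 6 that rose were Glis3 (0.79), Pou3f1 (0.91), Adgra3 (1.39), Fgfr3 (1.48), Egr3 (1.67) and Shisa6 (1.80), with BH-adjusted p from 0.00163 to 0.0451 in the authors' deposited table. Fgfr3, Egr3 and Shisa6 had means of only 8.66, 8.75 and 7.73. These lie in the second bin by mean, where the median was 1.28 and 1934 of 4337 genes rose. Adgra3 (mean 27.0) lay in the third bin, where 1245 of 4336 rose. Glis3 (86.1) and Pou3f1 (32.5) lay in the highest, where 11.7% rose. Sall4 (-0.44) and Egr4 (-0.04), both transcription factor genes of undifferentiated spermatogonia and the 2 of highest mean among those that did not pass, had BH-adjusted p = 0.186 and 0.875 in the authors' deposited table. Egr4 was at 127.4, 127.3, 121.3 and 126.9 in A to D and the sides lay close together, while with library totals it rose in limma (0.52, adjusted p = 0.00222). Under library totals the median of this list was 0.06 in limma, with 13 falls and 13 rises among 34 genes, against a median of 0.91 over all genes, of which 18.9% fell and 50.2% rose.

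The partners of TAF4B in TFIID, the complex that places RNA polymerase II at promoters, fell more often than not. Of 15 other TFIID subunits, 14 were tested in the authors' deposited table: 8 fell, 1 rose (Taf4) and 5 did not pass, with a median of -1.06, against 18.8% and 26.9% of all tested genes and a median of 0.38. Taf1, the largest subunit, was at 340.9, 353.6, 78.6 and 74.5 in A to D and fell by 2.16 on the log2 scale in the authors' deposited table (SE 0.189, BH-adjusted p = 1.08e-28). Taf7 (-3.09), Taf9b (-2.51), Taf2 (-2.24), the TATA-binding protein gene Tbp (-1.67) and Taf5 (-1.58) fell as well in the authors' deposited table (BH-adjusted p of 4.41e-05 at most). Taf3 (-0.29) and Taf8 (-0.74) missed the threshold in the authors' deposited table (BH-adjusted p = 0.500 and 0.168). Of the 14, 9 lay in the highest bin by mean and 7 of those fell, against 61.2% of all genes of that bin. With library totals 6 of 13 fell and 2 rose in limma, against 18.9% and 50.2% of all genes.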

How the data were processed

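Low-input ribosome profiling was done on THY1-positive mouse testis cells, about 1000 per sample, per the labels' protocols: RNase I digestion, a sucrose cushion, gel selection of fragments of 26 to 34 nucleotides and a kit that tails small RNA. Per the submitters' processing notes, build mm10 was used, with STAR 2.7.5c, Trimmomatic 0.39, StringTie 2.1.7, edgeR and DESeq2. Which tool did what, the annotation and the strand of counting are not stated. Per the file headers, the mean is a signal the authors averaged over libraries after size factor division, the standard error (a score here) and the log2 fold change are the authors', and the p-value and adjusted p-value are as deposited. The adjusted values equal a Benjamini-Hochberg adjustment within 1.22e-15. Fold change over its standard error was at the median 0.812 times the normal score that gives the deposited p. The deposited fold changes are thus not always plain ratios of counts, and the bin medians and the cut on log2 change use them as deposited. The planned main result was this deposited comparison, since no column belongs to a sample.

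The means are sums of whole reads times 1 step per library. A unique set of whole reads was found for 20512 of 20515 rows with signal (99.985%, within a relative 8e-15). The remaining 3 had several sets and were dropped, and 0 of 500 means shifted by a relative 1e-09 could be solved. The 1 row without a gene name (0.00475% of the summed means) was left out. Sides come from the sign of the fold change of genes with a single read. Limma 3.58.1 (voom, R 4.3.3) was fitted to the reads of 14470 genes with at least 10 reads, with Benjamini-Hochberg adjustment, and with other factors, filters and libraries left out; the recovery and the fit were also tested on simulated data. The table holds 0 other columns per sample.

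The 10 genes, the other lists and the alternatives were chosen with earlier results of these data known, so no count over them is independent evidence. Named were the 10 genes, Ddx20, all paralogues (which include Gfra2 to Gfra4 of the pathway list), and from each further list the 6 genes of smallest p that passed and the 2 of highest mean that did not. Gdnf and the 6 spermatogonial genes that rose were added after their values were seen. So were the 2 genes named from the germ cell markers and the 2 from the differentiating spermatogonia markers. Of the gene symbols 21734 matched RefSeq. Of the pathway genes this rule picks, 2 are not reported here.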

Additional observations from a re-analysis of the deposited data

How the results depend on the processing

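Among the 10 stem cell genes, none of the cuts, limma scalings, filters or left-out libraries turned the direction of any fold change. Reads per germ cell marker read, which is not among these settings, were higher in C and D for 9 of the 10. The same held for 94.8% of all tested genes. The 7 calls of the deposited table became 6 at an adjusted p of 0.01 and 4 when a log2 change above 1 was also asked. Under the same cuts the share called over all genes went from 45.7% to 31.3% and 42.3%. Limma on the recovered reads gave 6 to 9 calls over its scalings and filters and 7 to 8 without 1 library. With library totals 1 of 6 was a rise. Over all genes limma called 69.1% to 75.1% over its scalings and filters and 52.8% to 63.9% without 1 library. The Id4 call was lost at an adjusted p of 0.01, with library totals and without library B, and that of Taf4b with library totals. The deposited table called 9 of 34 pathway genes. Limma called 16 of 29 with the authors' size factors, with upper-quartile factors and without the 50 most abundant genes. It called 14 of 29 with TMM factors, 18 of 29 with library totals and 21 of 34 with no filter on reads. Without 1 library it called 10 to 14 (14 of 28 without library D). Of the paralogues it called 7 of 13 with the authors' size factors, upper-quartile factors, without the 50 most abundant genes or with A and B as 1 sample. It called 9 of 13 with library totals, 9 of 15 with no filter and 6 to 7 without 1 library (7 of 13 without library B). The deposited table called 4 of 14 paralogues, and 2 at an adjusted p of 0.01. The share of all genes called moved the same way, from 45.7% in the deposited table to 69.7% in limma with the authors' size factors. The cause of these differences was not tested. The TFIID and other spermatogonial counts stayed within 1.5 times. Over all genes limma called 15402 of 20511 with no filter, against 7920 in the deposited table, and rises were 58.9% of calls there, 72.6% with library totals, 27.8% with at least 50 reads and 73.1% with no filter. No paired analysis was possible because the recovered libraries cannot be tied to repeat numbers. Depth limits Thy1 and Lhx1 most, with at most 30 reads in a library.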
